A study of Homo sapiens with 6 samples.

Results

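H4K16ac and H3K79me2 are a pair of histone marks, the acetylated lysine 16 of histone H4 and the dimethylated lysine 79 of histone H3, and their peak lists from human HEK293T cells were compared gene by gene. A protein-coding gene of at least 1 kb on chromosomes 1 to 22 and X was placed in the class "both" where a peak of each mark lay within 1 kb of either annotated end. It was placed in "only H4K16ac" or "only H3K79me2" where a peak of that mark lay there and no peak of the other lay inside the gene or within 5 kb of it. These 3 classes held 11972 of the 19313 genes. Another 610 genes (3.16% of all) had H4K16ac at an end with H3K79me2 nearby but at no end. In 969 genes (5.02%) the roles were exchanged, and 5762 genes (29.8%) had neither mark at an end.

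The peaks came from chromatin immunoprecipitation followed by sequencing (ChIP-seq) of HEK293T. This is an established cell line made from human embryonic kidney that carries the large T antigen of SV40. The cells carried no treatment or further genetic change that the labels name. All libraries shared fixation in 1% formaldehyde for 10 min, a start from 10 ng of DNA, 13 amplification cycles and selection of fragments of 250 to 450 bp. The H4K16ac and H3K79me2 antibodies were both from CST, and 2 H2AZ antibodies (CST and Abcam) and 1 H3.3 antibody (EMD Millipore) gave the other peak lists, while the input library was not used here. Each antibody had 1 library, so the classes have no replicate check and no test was made. The 95% intervals below are exact binomial (Clopper-Pearson) intervals for shares and order-statistic intervals for medians. They cover counting error only, and they are too narrow wherever neighbouring genes share a peak. A gene without a peak is a gene where none passed the authors' threshold at a depth that is unknown, which is not evidence that the mark was absent.

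In human cells H4K16ac is written mainly by the acetyltransferase KAT8, which works in the MSL and NSL complexes, and it is removed by deacetylases such as SIRT1 and HDAC1 and HDAC2. Acetylation of this residue loosens the packing between neighbouring nucleosomes. H3K79me2 is written by DOT1L, the methyltransferase of the nucleosome core surface, which travels with elongation factors and marks the first part of genes that RNA polymerase II transcribes. Both marks are therefore known from active genes, through different enzymes and on different histones.

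Promoters of 5 genes show the classes at the level of bases. Each run is the 250 bases before the annotated start, 5′ to 3′ on the gene's strand, with every CpG in capitals, from the RefSeq promoter table of assembly GRCh38.p14. BRD1 (chr22:49827874-49828123, minus strand) led the class with both marks by the lower of its ranks in the lists. It encodes a bromodomain protein of histone acetyltransferase complexes. SLC22A4 (chr5:132294144-132294393, plus strand), a solute carrier for ergothioneine and carnitine, had the strongest H4K16ac of the genes with only that mark whose promoter entry begins at the annotated gene end. FTCD (chr21:46155580-46155829, minus strand), an enzyme of histidine breakdown in liver, was the strongest of these with an observed to expected CpG ratio under 0.4 in its promoter. TMEM126A (chr11:85647717-85647966, plus strand), a mitochondrial membrane protein, and HOXA4 (chr7:27130758-27131007, minus strand), a patterning factor, had the strongest H3K79me2 of the genes with only that mark.
BRD1: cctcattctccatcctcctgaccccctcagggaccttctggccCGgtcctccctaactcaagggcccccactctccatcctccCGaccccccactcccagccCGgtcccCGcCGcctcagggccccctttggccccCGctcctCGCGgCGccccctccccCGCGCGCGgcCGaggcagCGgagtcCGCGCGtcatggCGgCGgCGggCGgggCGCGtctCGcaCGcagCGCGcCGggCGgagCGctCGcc
SLC22A4: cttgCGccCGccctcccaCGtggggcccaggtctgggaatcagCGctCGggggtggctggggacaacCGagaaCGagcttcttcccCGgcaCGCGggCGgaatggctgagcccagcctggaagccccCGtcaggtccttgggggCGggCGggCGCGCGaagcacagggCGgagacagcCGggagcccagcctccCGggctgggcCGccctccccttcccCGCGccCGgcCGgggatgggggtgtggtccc
FTCD: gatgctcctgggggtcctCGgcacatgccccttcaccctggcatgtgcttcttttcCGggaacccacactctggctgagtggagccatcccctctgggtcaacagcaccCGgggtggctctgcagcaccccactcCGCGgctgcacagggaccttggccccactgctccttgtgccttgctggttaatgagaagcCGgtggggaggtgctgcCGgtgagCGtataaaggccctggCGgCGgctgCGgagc
TMEM126A: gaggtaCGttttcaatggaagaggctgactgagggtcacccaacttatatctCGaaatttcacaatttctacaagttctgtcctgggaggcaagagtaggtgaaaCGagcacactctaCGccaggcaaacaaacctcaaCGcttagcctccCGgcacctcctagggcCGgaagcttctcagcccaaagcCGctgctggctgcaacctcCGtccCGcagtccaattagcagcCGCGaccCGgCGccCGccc
HOXA4: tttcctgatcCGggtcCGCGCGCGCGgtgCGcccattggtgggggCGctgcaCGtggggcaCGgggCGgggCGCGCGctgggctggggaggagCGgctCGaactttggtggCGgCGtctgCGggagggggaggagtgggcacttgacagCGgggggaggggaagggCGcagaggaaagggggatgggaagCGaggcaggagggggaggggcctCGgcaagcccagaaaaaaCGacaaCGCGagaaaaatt

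The BRD1 run holds 32 CpGs, and peaks of H4K16ac covered 55.2% of it and peaks of H3K79me2 90.8%. The SLC22A4 run holds 25 CpGs with 34.8% under H4K16ac, and the FTCD run holds 11 CpGs, carries the letters TATAAA and lay wholly under an H4K16ac peak. Neither had an H3K79me2 peak. The TMEM126A run holds 15 CpGs and the letters CCGGAAG, the core recognised by ETS factors, with 58.4% under H3K79me2. The HOXA4 run holds 26 CpGs and lay wholly under H3K79me2. Neither of these had an H4K16ac peak. The printed runs of each single-mark class differ in their number of CpGs.

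Both marks at the same gene was the largest class. It held 7898 genes, 40.9% of all genes (95% interval 40.2 to 41.6%). Only H4K16ac was found at 2172 genes, 11.2% (10.8 to 11.7%), and only H3K79me2 at 1902 genes, 9.85% (9.43 to 10.3%). Each mark reached nearly the same number of genes: H4K16ac lay at an end of 10680 genes (55.3%) and H3K79me2 at an end of 10769 (55.8%). The members share peaks: the strongest peaks at the ends of the genes with both marks were 6913 distinct H4K16ac peaks and 6708 distinct H3K79me2 peaks. The genes with only H4K16ac rest on 2088 distinct peaks and those with only H3K79me2 on 1697.

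Each mark was weaker where it stood alone. The authors' −log10 q-value, a measure of how surely a peak stands above background, had a median of 11.2 (10.9 to 11.4) for the strongest H4K16ac peak of a gene with both marks and of 8.72 (8.24 to 8.79) for a gene with only H4K16ac. For H3K79me2 the medians were 221 (212 to 230) with both marks and 90.6 (84.5 to 96.8) alone. The authors' fold enrichments ran the same way, with medians of 8.51 and 7.44 for H4K16ac and of 47.1 and 24.1 for H3K79me2. The values are set side by side only within a list, since the lists differ in range: −log10 q ran from 2.00 to 134.6 for H4K16ac and from 2.06 to 973 for H3K79me2.

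The share of single-mark genes fell with strength without reaching 0. The 10769 genes with H3K79me2 at an end were split into 4 equal groups by −log10 q. Only H3K79me2 made up 25.8% of the weakest group (696 of 2693 genes), 25% and 15.7% of the middle groups, and 4.12% of the strongest (111 of 2692, all with −log10 q of at least 378). Of the 10680 genes with H4K16ac, only H4K16ac made up 28.7% of the weakest group (766 of 2670) and 10.8% of the strongest (288 genes, −log10 q of at least 15.7). A strong H3K79me2 peak thus stood without H4K16ac less often than a strong H4K16ac peak stood without H3K79me2, as counts from unlike lists.

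The strongest genes with both marks, ranked by the weaker mark, included 2 pairs of neighbours that share their peaks. BRD1 had −log10 q of 59.7 for H4K16ac and 838 for H3K79me2. The neighbours SRSF2, a splicing factor, and MFSD11, a transporter-like membrane protein, shared peaks of 49.8 and 843. ARPC5L, an actin-nucleation subunit, and RPL35, a ribosomal protein, shared peaks of 49.2 and 869. ATXN7, a subunit of the SAGA acetyltransferase complex, had 48.1 and 829. The highest H4K16ac value of the whole list, 134.6, lay at S100A13, a calcium-binding protein gene that also had H3K79me2 (596). Among genes of at least 5 kb the most fully covered by both marks were FASN, the fatty acid synthase, with 87.7% of its length under H4K16ac and 90.3% under H3K79me2, and DUS1L, CHTF18 and GUK1. GUK1, the guanylate kinase, had 72.4% and 95.9%. At the other extreme the longest genes of the class, DAB1, FHIT and CCSER1, span 1551949, 1504176 and 1477902 bp.

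The strongest genes with only H4K16ac encode proteins of several kinds. ENPP7 (chr17:79730943-79742219), the intestinal alkaline sphingomyelinase, led with −log10 q of 47.9 and 31.9% of its length covered. WNT3A, a secreted WNT ligand, had 46.3, IKBKE, a kinase of innate immune signalling, 44.7, and SLC22A4 42.8. CFAP410, a protein of cilia, followed with 38.2, FTCD with 36.3, the chemokine CCL17 with 35.7 and the tight-junction protein CLDN5 with 35.5. The mark ran over most of some short genes: HGFAC, a serine protease that activates hepatocyte growth factor, was 81.3% covered, SUSD2 81.2%, the synaptotagmin SYT8 76.2% and the cytochrome CYP2W1 75.6%. The longest members were AGBL4 (1501444 bp), NAALADL2 (1369567 bp) and ANKS1B (1250151 bp).

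The strongest genes with only H3K79me2 had values far up the list. TMEM126A had −log10 q of 753 and HOXA4 751, the latter with its whole length covered. GAPVD1, a factor of endosome trafficking, had 735, PABPC1, the poly(A)-binding protein, 677, and the ubiquitin ligase UBR3 664. MCMBP, a partner of the replicative helicase, had 628, PDSS1, of coenzyme Q synthesis, 597 and the ubiquitin ligase HERC4 594. SRSF3, a splicing factor, was covered from end to end, and PTRH2, KBTBD6 and SHLD3 were covered over 98.7%, 98.0% and 96.7%. MACROD2 (2057682 bp), LRP1B (1899594 bp) and ERBB4 (1163086 bp) were the longest. No H4K16ac peak lay in these genes or within 5 kb of them, by the rule of the class.

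Gene families divided between the single-mark classes. Of 56 families and complexes with at least 15 members, 20 held more genes with only H3K79me2 than with only H4K16ac and 35 held more with only H4K16ac. In 10 families no gene had only H4K16ac and in 23 none had only H3K79me2. The families were matched by symbol, and their shares are read against the shares over all genes given above. The interval of the share with only H4K16ac lay wholly above 11.2% in 14 of the 56, and that of only H3K79me2 wholly above 9.85% in 11. The single-mark shares change with the number of peaks taken: with the 10000 strongest peaks of each, 3.90% of all genes had only H4K16ac and 26.8% only H3K79me2.

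Families of the basic machinery of the cell held both marks or H3K79me2 alone. Of 85 cytosolic ribosomal protein genes 62 had both marks (72.9%), 18 only H3K79me2 (21.2%) and 0 only H4K16ac. RPS16, RPS12 and RPS6 led those with only H3K79me2, with −log10 q of 347, 292 and 286. The 75 mitochondrial ribosomal protein genes had 48 with both, 19 with only H3K79me2 (25.3%) and 0 with only H4K16ac, and MRPL57 was the strongest of the 19 at 437. A count of 0 of 85 or of 75 genes was set against 11.2% over all genes.

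The same pattern ran through energy metabolism and translation. Of 90 oxidative phosphorylation genes 50 had both marks, 27 only H3K79me2 (30%) and 2 only H4K16ac. The 27 were led by the ATP synthase genes ATP5F1E (474), ATP5F1B (435) and ATP5MG (364). The exceptions with only H4K16ac were COX6B2 and COX7A1 (−log10 q of 13.7 and 13.0), isoforms of cytochrome oxidase subunits known from testis and from muscle. Of 35 tRNA synthetase genes 20 had both and 10 only H3K79me2, among them MARS1, EPRS1 and IARS1, and 0 had only H4K16ac. The interval of the 20 (39.4 to 73.7%) includes the 40.9% of all genes. Of 55 translation initiation factor genes 37 had both and 12 only H3K79me2, led by EIF4A2 (470), and 0 only H4K16ac.

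Transcription, splicing and replication followed. Mediator, the bridge between activators and RNA polymerase II, had 15 of 28 genes with both marks, 8 with only H3K79me2 (MED14 the strongest at 384) and 0 with only H4K16ac. RNA polymerase subunit genes gave 18, 6 and 0 of 31. For both marks the intervals of the Mediator (33.9 to 72.5%) and polymerase genes (39.1 to 75.5%) include the 40.9% of all genes. For only H3K79me2 the polymerase interval (7.45 to 37.5%) includes 9.85%, and the Mediator interval (13.2 to 48.7%) lies above it. The intervals of the 0 counts reach 12.3% for Mediator and 11.2% for the polymerases, against 11.2% of all genes. Of 73 splicing factor genes 41 had both, 15 only H3K79me2 and 1, PRPF40B, only H4K16ac. The 37 DNA replication genes had 22 with both, such as MCM7 (65.7 for H4K16ac and 722 for H3K79me2), and 12 with only H3K79me2 (32.4%), led by the clamp loader gene RFC4 (470), the helicase gene MCM4 (412) and the polymerase gene POLA1 (407). Of 17 glycolytic enzyme genes 13 had both marks and 1, PGK1 (117), only H3K79me2, and with the 10000 strongest peaks 8 had only H3K79me2. The interval of PGK1 as 1 of 17 (0.149 to 28.7%) includes the 9.85% of all genes.

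Homeobox and forkhead factor genes, regulators of development, held only H4K16ac more often than the 11.2% of all genes. Of 91 homeobox factor genes outside the HOX clusters 34 had both marks, 27 only H4K16ac (29.7%, interval 20.5 to 40.2%) and 4 only H3K79me2. The order turned to 5 with only H4K16ac and 13 with only H3K79me2 when each list was cut to its 10000 strongest peaks. NKX6-3 and PRRX2, among the strongest of the 27, had −log10 q of 17.5 and 16, and the 4 included MEIS2 (30.6), NKX2-4 (7.97) and BARX2 (5.59). Forkhead factor genes gave 18 with both, 13 with only H4K16ac (25%, interval 14 to 38.9%) and 0 with only H3K79me2 of 52, and with the 10000 strongest peaks 2 and 13. FOXE1 (26.3), a thyroid factor, and FOXJ1 (21.7), the factor of motile cilia, were the strongest of the 13. T-box genes gave 5, 4 and 0 of 16, and the interval of the 4 (7.27 to 52.4%) includes the share of all genes. TBX2, TBX3, TBX20, TBX6 and TBX10 had both marks and TBX4, TBX5, TBXT and TBR1 only H4K16ac. TBX18 had H3K79me2 at an end (417) with H4K16ac near but at none. Nuclear receptor genes had both marks at 17 of 42 (40.5%) and only H4K16ac at 5 (11.9%), both near the shares of all genes, and only H3K79me2 at 0. The T-box genes had 1 with only H4K16ac and 2 with only H3K79me2 by the 10000 strongest peaks, and the nuclear receptor genes 2 and 10. The 5 nuclear receptor genes with only H4K16ac were VDR, the vitamin D receptor, NR0B2, NR5A1, NR2E3 and NR0B1, and NR2F2 had both marks at 27.5 and 757.

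Ligands and receptors of one pathway fell in different classes. Of 19 WNT ligand genes 7 had only H4K16ac (36.8%) and 1, WNT11, had both marks (22.3 and 71.6). WNT3A (46.3), WNT7B (22.3) and WNT1 (14.3) were the strongest of the 7. Neither mark was at an end of 8 of the 19 WNT ligand genes (42.1%), against 29.8% of all genes. The interval of the 8 (20.3 to 66.5%) includes that share. Of the 10 frizzled genes, which encode the receptors of these ligands, 7 had both marks and 0 had a single mark by the rule. The interval of the 7 (34.8 to 93.3%) includes the 40.9% of all genes. The FGF ligand genes, growth factors of many tissues, had 7 of 22 with both and 7 with only H4K16ac. FGF2 had both (13.1 and 269), and FGF19, FGF5 and FGF6 led those with only H4K16ac with −log10 q of 9.11, 9.03 and 8.79. With the 10000 strongest peaks 4 WNT genes had only H4K16ac and 0 only H3K79me2, while the FGF genes had 0 and 2. By the same peaks the frizzled genes had 0 with only H4K16ac and 7 of 10 with only H3K79me2.

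Potassium and calcium channel genes, which work in excitable cells, had shares with only H4K16ac above the 11.2% of all genes. The 96 potassium channel genes had 18 with both marks, 18 with only H4K16ac (18.8%, interval 11.5 to 28.0%), led by KCNJ4 (21), and 2 with only H3K79me2, KCNJ8 (11.1) and KCNB2 (4.93). Voltage-gated calcium channel genes gave 8 with both and 8 with only H4K16ac of 26 (30.8%, interval 14.3 to 51.8%), the strongest being CACNA1G (27.4). By the 10000 strongest peaks the potassium channel genes had 5 with only H4K16ac and 5 with only H3K79me2, and the calcium channel genes 1 and 2. Sodium channel genes gave 3 and 4 of 14: SCN11A and SCN8A were among those with both, and SCN4A, SCN4B and SCN3B among those with only H4K16ac. Glutamate and GABA receptor genes gave 7 and 9 of 46, with GRIN2C the strongest (22.2). The intervals of the shares with only H4K16ac, 8.39 to 58.1% for the sodium channels and 9.36 to 33.9% for the receptors, include the share of all genes. The calcium channel, sodium channel and receptor lists had 0 genes with only H3K79me2.

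Several structural and immune families had shares with only H4K16ac above that of all genes. Neither mark was at an end in 37 of 55 keratin genes (67.3%) and 24 of 32 keratin-associated protein genes (75%), against 29.8% of all genes. The same held for 52 of 85 interleukin and receptor genes (61.2%) and 33 of 42 chemokine genes (78.6%). Collagen genes (14 of 44, 31.8%) and TNF receptor superfamily genes (6 of 21, 28.6%) lay near the share of all genes. Keratin genes, the intermediate filaments of epithelia and hair, had 16 of 55 with only H4K16ac (29.1%). The 2 with both marks were KRT8 and KRT18, the neighbouring pair of simple epithelia, which shared peaks of 6.05 and 17.2. The 32 keratin-associated protein genes had 8 with only H4K16ac, led by KRTAP10-7 (11.6), and none with both. Of 44 collagen genes 12 had only H4K16ac, among them COL7A1, the anchoring-fibril collagen (24.5, 41.3% covered). The 2 with only H3K79me2 were COL5A2 (197) and COL4A5 (8.48), and COL6A1 had both, with 79.4% of it under H4K16ac and 9.75% under H3K79me2. Interleukin and receptor genes gave 13 with both, 18 with only H4K16ac and 0 with only H3K79me2 of 85, and genes of the TNF receptor superfamily 7, 7 and 0 of 21. TNFRSF18 was 73.7% covered by H4K16ac. Of 42 chemokine genes 7 had only H4K16ac (16.7%, interval 6.97 to 31.4%, which includes the share of all genes), and CXCL12 and CXCL16 had both. With the 10000 strongest peaks only H4K16ac was left at 1 keratin gene, 0 keratin-associated protein genes, 7 collagen genes, 5 interleukin and receptor genes and 3 TNF receptor genes.

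**Figure D1:**
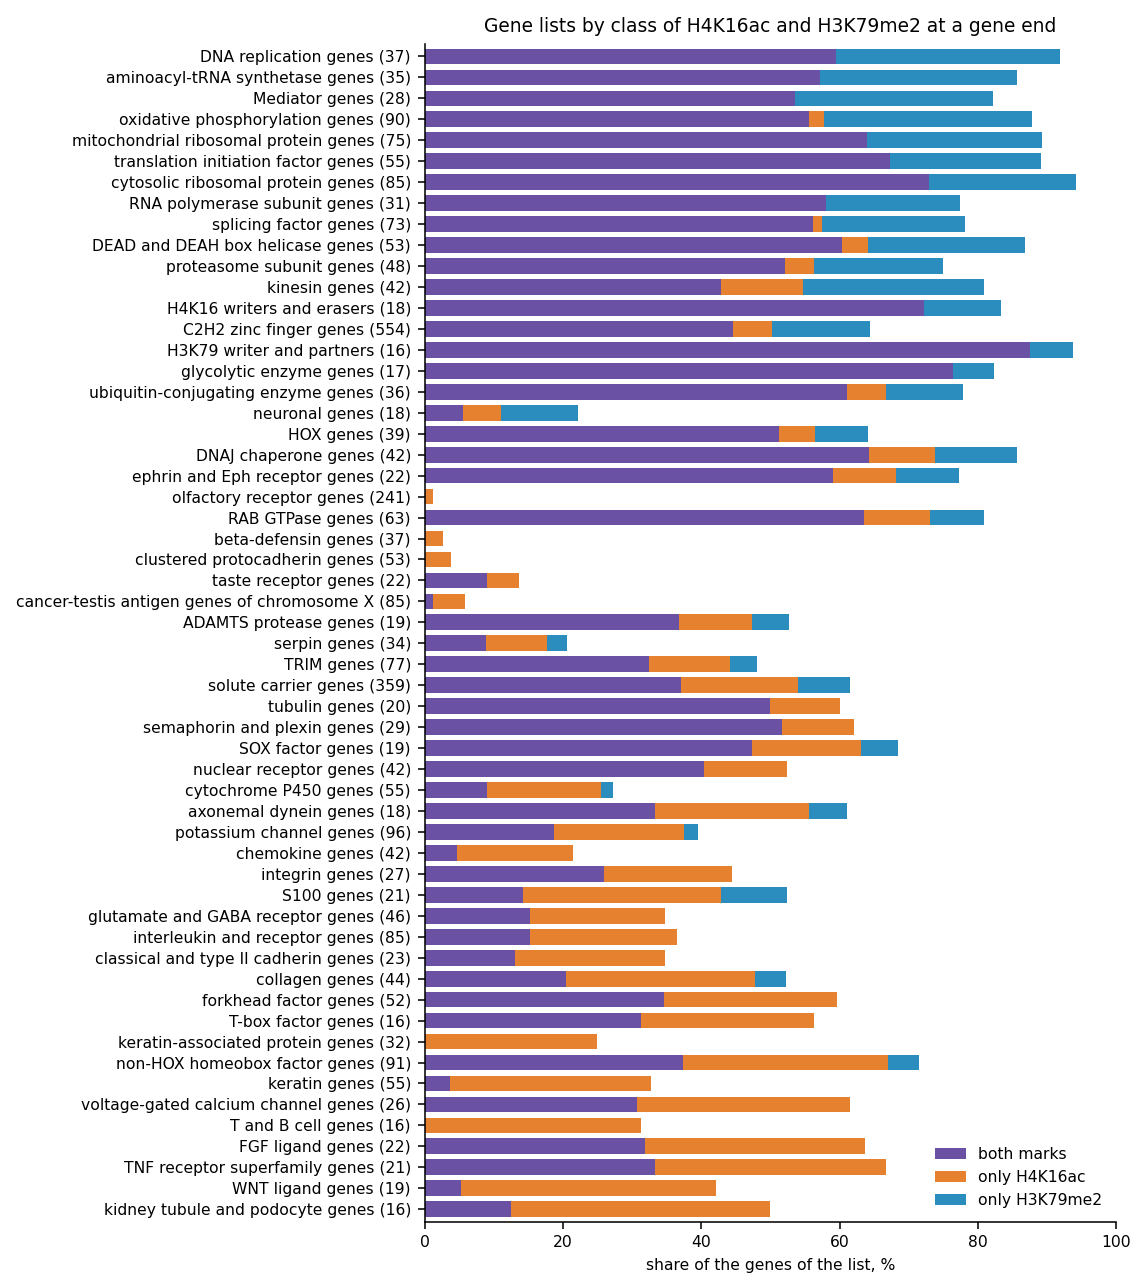
Stacked bars of the share of each list's genes (x axis, percent; number of genes in parentheses; 1 library per antibody, so no error bars) with both marks, only H4K16ac and only H3K79me2, ordered by the difference between the single-mark shares. Replication, ribosomal and respiratory lists at the top have wide bars for only H3K79me2 and none or narrow ones for only H4K16ac, and WNT, FGF, keratin and homeobox lists towards the foot are the other way round, an order that turns for FGF and homeobox genes with the 10000 strongest peaks.

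Some families split within themselves. The 554 C2H2 zinc finger genes, the largest family of DNA-binding factors, had 247 with both marks (44.6%), 79 with only H3K79me2 (14.3%) and 31 with only H4K16ac (5.60%). ZNF664, ZNF394 and ZNF202 led the 79 with −log10 q of 496, 297 and 270. Of 42 kinesin genes 11 had only H3K79me2 (26.2%, interval 13.9 to 42.0%, against 9.85% of all genes). KIF1B (347), KIF11 (326), the mitotic motor, and KIF3A (256) led them. KIF25, KIF21B, KIF19, KIF6 and KIF12 were the 5 with only H4K16ac (11.9%, interval 3.98 to 25.6%), near the 11.2% of all genes. DDX4 (5.23) and DDX43 (14.5), helicases known from germ cells, were the 2 DEAD and DEAH box genes of 53 with only H4K16ac, whereas DDX46 (545) and DHX9 (458) led 12 with only H3K79me2. Of 48 proteasome genes 25 had both and 9 only H3K79me2, led by PSMD13 (405). The intervals of these shares (37.2 to 66.7% and 8.95 to 32.6%) include those of all genes, 40.9% and 9.85%. The 2 with only H4K16ac were PSMD5 (8.44) and PSMB11 (8.53), the subunit of the thymus. The 359 solute carrier genes had 133 with both (37.0%), 61 with only H4K16ac (17.0%) and 27 with only H3K79me2 (7.52%). The intervals for both marks (32.0 to 42.3%) and only H3K79me2 (5.01 to 10.8%) include the shares of all genes, 40.9% and 9.85%. That for only H4K16ac (13.3 to 21.3%) lies above the 11.2% of all genes. SLC40A1, the iron exporter (34.6), followed SLC22A4 among the 61, and the amino acid transporter gene SLC38A2 (367) led the 27. By the 10000 strongest peaks 22 solute carrier genes had only H4K16ac and 77 only H3K79me2.

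The HOX clusters were covered by H3K79me2. It lay at an end of 36 of the 39 HOX genes, against 55.8% of all genes. It covered a median of 96.2% of their length, against 3.66% for H4K16ac. Both marks were at 20 of the 39 (51.3%, interval 34.8 to 67.6%, which includes the 40.9% of all genes). Another 13 had H3K79me2 at an end with H4K16ac within 5 kb. HOXC8, HOXC9 and HOXC10 lay under 1 H3K79me2 peak (−log10 q 766), so they are not separate observations. HOXA4 (751), HOXD10 (569) and HOXA2 (61.4) had only H3K79me2. HOXD1 (9.23) and HOXB1 (9.22), which both lie at the 3′ edge of their clusters, had only H4K16ac, and HOXC12 had neither mark at an end. The 8 replication-dependent histone genes of at least 1 kb all had only H3K79me2 (interval 63.1 to 100%, against 9.85% of all genes). H2BC4 (192), H2BC5 (127) and H3C6 (91.0) led them. Their median annotated length was 9661.5 bp. Histone genes shorter than 1 kb were not classed, so the 8 do not stand for the whole family. By the 10000 strongest peaks 4 of the 8 had only H3K79me2.

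Families that are silent in most tissues had few peaks of either kind at gene ends. Of 241 olfactory receptor genes 3, OR1F1, OR2V2 and OR10C1, had only H4K16ac, and none had H3K79me2 at an end. Of 53 clustered protocadherin genes 2 had only H4K16ac. That count depends on the window, since 45.3% of the protocadherin genes had only H4K16ac with a window of 2 kb. Neighbouring genes of a cluster can share a peak. H4K16ac covered a median of 0.222% of the length of the protocadherin genes, so peaks also lay inside them.

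Marker lists of cell types are small, and their shares have wide intervals. Of 13 nephron progenitor factors 5 had both marks (38.5%, interval 13.9 to 68.4%, against 40.9% of all genes), among them SIX2 (17.1 and 425), SALL1 (5.23 and 591), CITED1 and WT1, and 3, including GDNF and PAX8, had only H4K16ac. Of 16 markers of kidney tubule and podocyte 2, PODXL and LRP2, had both marks. Another 6, including NPHS1, AQP1 and AQP2, had only H4K16ac (37.5%, interval 15.2 to 64.6%, against 11.2% of all genes). Of 16 T and B cell markers 5 had only H4K16ac (31.3%, interval 11 to 58.7%), CD7 (20.8, 86.7% covered), CD79B, LCK, ZAP70 and CD5, and none had both. Of 14 hepatocyte markers 2, CPS1 and APOA1, had both (14.3%, interval 1.78 to 42.8%, against 40.9% of all genes). Another 10 (71.4%, interval 41.9 to 91.6%) had neither mark at an end, against 29.8% of all genes. The 18 neuronal markers had NEFM with both, SYT1 with only H4K16ac, and INA (52.7) and NEFL (40.0) with only H3K79me2. Both marks at 1 of 18 is 5.56% (interval 0.141 to 27.3%), and 10 of 18 (55.6%, interval 30.8 to 78.5%) had neither at an end. The intervals of the kidney lists and of the T and B cell list overlap for only H4K16ac, and a peak list cannot show which share of cells carries a mark.

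The enzymes of the marks were themselves marked. Among 18 genes of H4K16 writers and erasers 13 had both marks, including KAT8 (14.5 and 181), the MSL complex genes MSL1 and MSL2 (the latter 14.8 and 691), HDAC1, HDAC2, WDR5 and HCFC1 (44.9 and 446). SIRT1 (340) and MSL3 (31.2) had only H3K79me2. KANSL1, the scaffold of the NSL complex, had neither mark at an end, though H3K79me2 covered 55.5% of it. Of 16 genes of the H3K79 writer and its partners 14 had both, among them DOT1L itself (11.4 and 755), with 43.3% of its length under H4K16ac and 67.3% under H3K79me2. EAF1 (357) had only H3K79me2 and AFF3 neither at an end.

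Gene length separated the single-mark classes. The median gene with only H4K16ac spanned 16.8 kb (15.6 to 18.3), the median gene with both marks 27.2 kb (26.3 to 28.2) and that with only H3K79me2 37.0 kb (34.4 to 40.1), against 25.8 kb over all genes. The intervals of the classes do not overlap. Between genes of 1 to 3 kb and of 30 to 100 kb the share with only H4K16ac went from 18.1% to 8.84% and that with only H3K79me2 from 3.69% to 14%. Beyond 100 kb the H3K79me2 share came down again, to 10.9% at 100 to 300 kb and 6.87% above 300 kb. The share with both marks was 28.9% at 1 to 3 kb, between 39.7% and 43.6% from 3 to 300 kb, and 30.5% above 300 kb.

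Gene density and peak strength moved with length, so the length pattern was taken within them. Among genes with at most 10 neighbours within 500 kb, only H4K16ac went from 17.4% at 1 to 3 kb to 7.28% at 100 to 300 kb. With more than 10 neighbours it went from 18.4% to 6.80%. Only H3K79me2 rose from 3.58% at 1 to 3 kb to 18.8% at 30 to 100 kb in the sparse regions and from 3.73% to 8.11% in the dense ones. Within the strongest of the 4 groups of H4K16ac genes, only H4K16ac still made up 21% at 1 to 3 kb (35 of 167) and 5.26% at 100 to 300 kb. Within the strongest group of H3K79me2 genes the rise with length was smaller and not steady: only H3K79me2 made up 4.05% at 1 to 3 kb, 1.82% at 3 to 10 kb, 3.94% at 10 to 30 kb and 5.60% at 30 to 100 kb, and the intervals of the first and last overlap (1.5 to 8.61% and 4.14 to 7.38%). The rule bars the other mark from the whole gene, so a longer gene has more room for a peak that takes it out of a single-mark class. The part of this in the shares was not tested.

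Between sparse and dense regions the share of genes with only H3K79me2 changed by the largest factor of the 3 classes. It was 13.5% with 0 to 5 protein-coding neighbours within 500 kb, 14.5% with 6 to 10 and 2.83% with more than 30. The share with both marks rose over the same range from 32.1% to 53.9%, and that with only H4K16ac from 8.03% to 13.2%, with its top of 14.1% at 21 to 30 neighbours. A neighbour's H4K16ac peak within 5 kb takes a gene out of the class with only H3K79me2, and neighbours are closer where genes are dense. Within the strongest H3K79me2 group the share with only H3K79me2 also fell, from 8.29% (32 of 386 genes) at 0 to 5 neighbours to 0.791% (4 of 506) above 30. The median gene with only H3K79me2 had 8 neighbours, against 13 in both other classes and 11 over all genes.

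Chromosome ends held few genes with only H3K79me2. Within 2 Mb of the end of a chromosome's annotated genes 3.08% of 1332 genes had only H3K79me2, and beyond 20 Mb 12.1% of 11639 genes did. Both marks went the other way, from 57.4% within 2 Mb to 38.3% beyond 20 Mb. Only H4K16ac varied less, from 12.2% within 2 Mb through 15.9% at 2 to 5 Mb to 10.4% beyond 20 Mb. The median distance to the end was 24.2 Mb for both marks, 23.7 Mb for only H4K16ac and 35.8 Mb for only H3K79me2. Density and distance to the end move together, so the shares were also taken within density. From within 2 Mb to beyond 20 Mb, only H3K79me2 went from 6.49% to 15.5% with at most 10 neighbours within 500 kb. With more than 10 it went from 2.24% to 8.16%. Both marks went from 61.6% to 41.6% with more than 10 neighbours. With at most 10 they went from 40.5% to 35.4%, where the intervals overlap (34.5 to 46.7% and 34.2 to 36.6%).

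**Figure D2:**
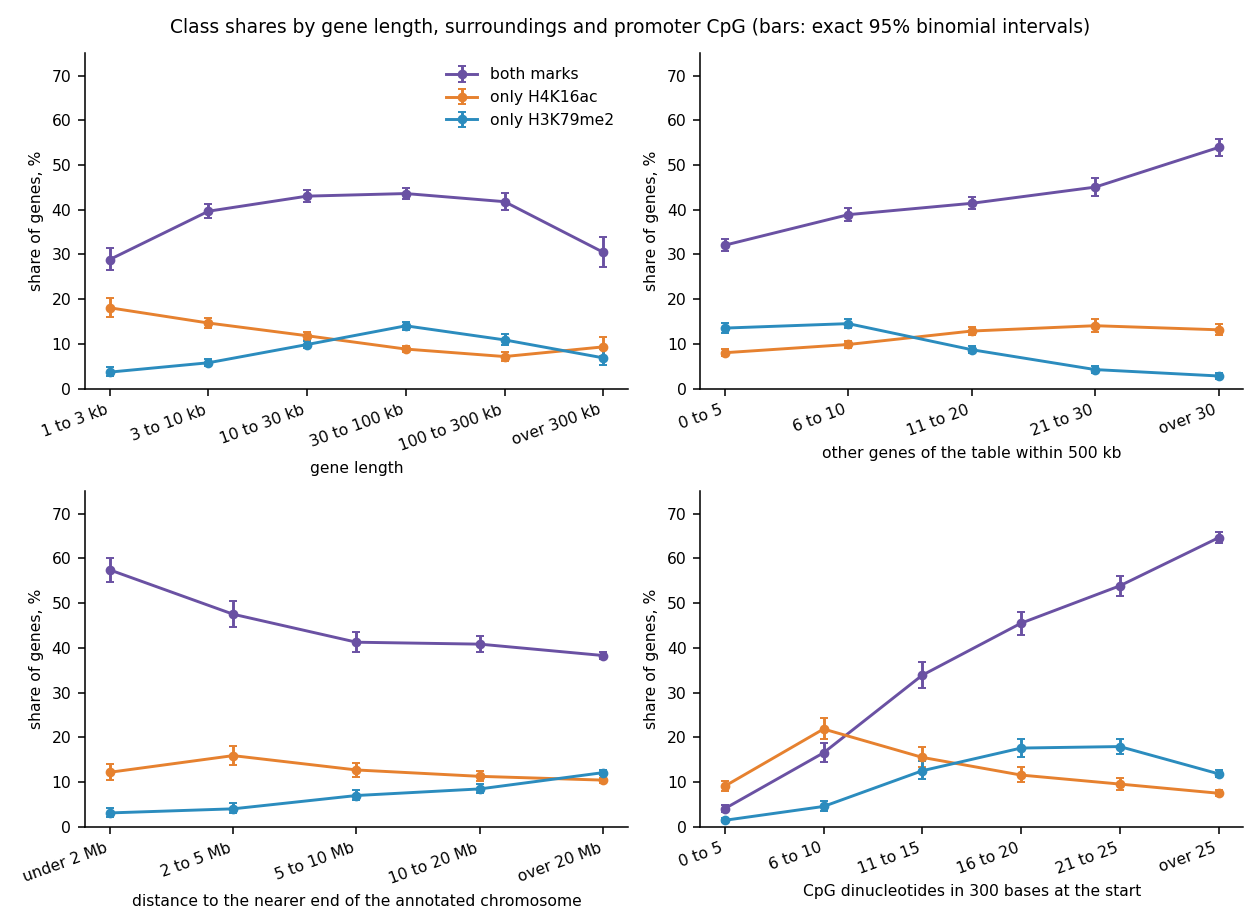
Share of genes in each class (y axis, percent) by gene length, neighbours within 500 kb, distance to the end of the annotated chromosome and promoter CpG count (x axes, bins of unequal width), with bars for exact 95% intervals and 1 library per antibody. Only H3K79me2 lies at 13.5% with 0 to 5 neighbours and 2.83% above 30, and at 3.08% within 2 Mb of an end and 12.1% beyond 20 Mb, while both marks go the opposite way.

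Single chromosomes showed the contrast. On chromosome 22, which is short and gene dense, 56.3% of 432 genes had both marks, 18.1% only H4K16ac and 3.01% only H3K79me2. Chromosomes 16, 17 and 19 followed, with both marks at 53.6%, 50.1% and 48.1% of genes and only H3K79me2 at 3.99%, 5.27% and 3.94%. On chromosome 18 only H3K79me2 was the more frequent: 3.37% of 267 genes had only H4K16ac and 14.6% only H3K79me2. Only H3K79me2 was at 15.6% of the genes of chromosome 8, 15.1% on chromosome 14 and 13.5% on chromosome 13. Chromosome X had both marks at 26.6% of 824 genes. No list of the 5 had a peak before 2.79 Mb on X, where 16 of these genes lie, from PLCXD1 to CD99, so those 16 could be in no class with a mark.

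**Figure D3:**
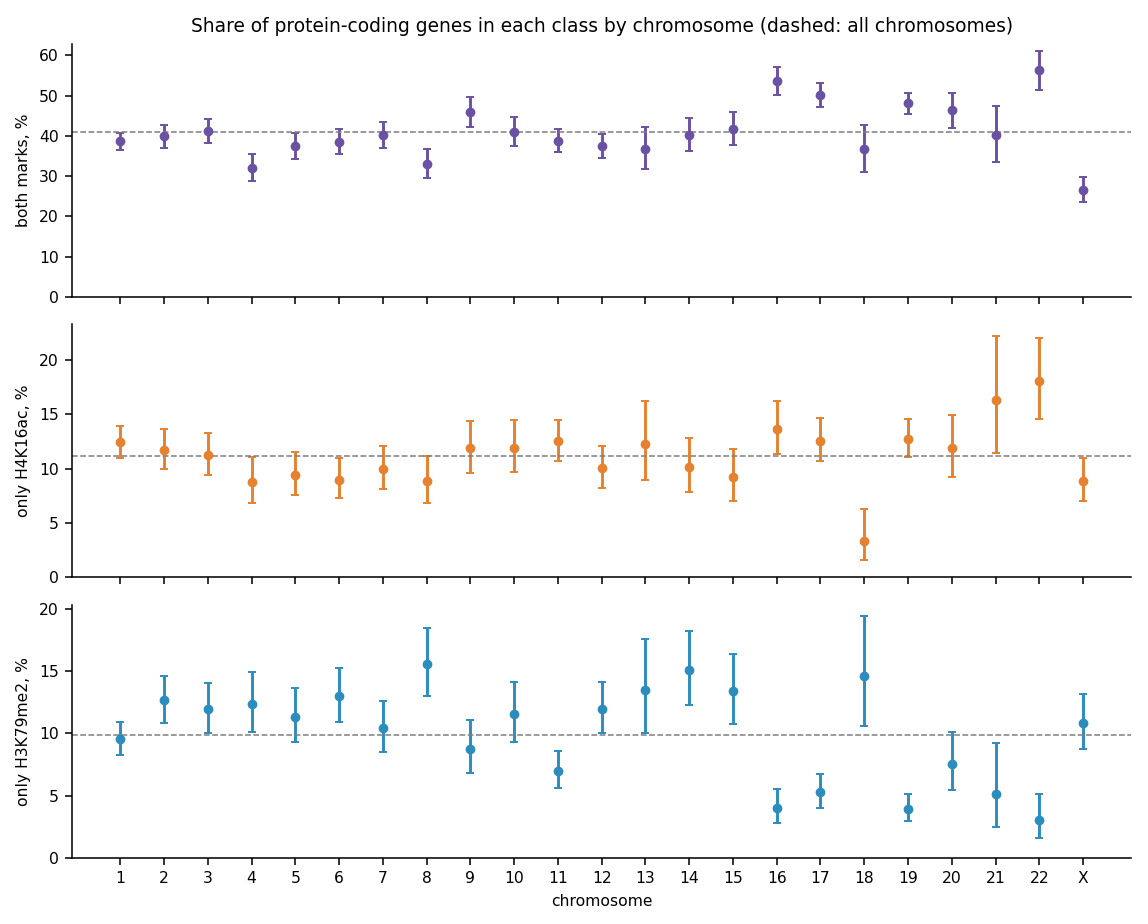
Share of the protein-coding genes (y axes, percent, each panel on its own scale) of each chromosome (x axis) with both marks, only H4K16ac and only H3K79me2, with exact 95% intervals, 1 library per antibody and a dashed line for all chromosomes. Chromosomes 22, 16, 17 and 19 have the highest shares with both marks, and chromosome 18 has 3.37% with only H4K16ac.

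Some local clusters held related genes. In bins of 5 Mb with at least 20 genes, both marks reached 65 of 76 genes (85.5%) at 80 to 85 Mb of chromosome 17 and 136 of 182 (74.7%) in the first bin of chromosome 16. Only H3K79me2 reached 11 of 33 genes (33.3%) at 20 to 25 Mb of chromosome 19, all of them zinc finger genes, and 9 of 28 (32.1%) at 25 to 30 Mb of chromosome 12, among them MED21 of the Mediator complex. Only H4K16ac reached 9 of 21 (42.9%) at 70 to 75 Mb of chromosome 6, where the oocyte and embryo genes OOEP, KHDC3L and DPPA5 lie. It reached 21 of 62 (33.9%) at 40 to 45 Mb of chromosome 21, with KRTAP10 genes, the trefoil genes TFF1 and TFF3 and the protease gene TMPRSS2. These bins were picked as the highest, and they are given as descriptions.

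Runs of adjacent genes of 1 class were longest for both marks, with 27 genes from PTDSS2 to TSPAN4 (chr11:448268-867111), which include HRAS and RPLP2. The longest run with only H4K16ac held 7 genes at chr11:2129117-2318204, the imprinted region with IGF2, INS-IGF2, INS, TH, ASCL2, C11orf21 and TSPAN32. Another held SMIM41 and the keratin genes KRT80, KRT7, KRT86, KRT81 and KRT83 (chr12:52079704-52321398). The longest with only H3K79me2 were 7 zinc finger genes, ZNF430, ZNF714, ZNF431, ZNF708, ZNF738, ZNF493 and ZNF429 (chr19:21020657-21540668), and 7 genes from HEATR5B to NDUFAF7 (chr2:36980895-37271365). In runs of at least 3 genes lay 57.5% of the genes with both marks, 17.7% of those with only H4K16ac and 15.9% of those with only H3K79me2. Genes of a run can share a peak, and the share of a class in runs grows with the size of the class.

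Position within the gene differed between the marks. Strand was known for 15412 genes. Where only H3K79me2 was present (1569 genes), it lay at the start alone in 93.8%, at both ends in 5.29% and at the far end alone in 0.956%. Where only H4K16ac was present (1576 genes), it lay at the start alone in 59.3%, at both ends in 27.4% and at the far end alone in 13.3%. In the 396 of these with no other gene within 5 kb, the shares were 64.9%, 23.5% and 11.6%, so a far-end H4K16ac peak was also found where no neighbouring gene lay close. Of the 6536 genes with both marks, 91.6% had both at the start, and 4.18% had them at opposite ends.

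At 5984 starts with both marks the peaks lay on each other. They overlapped at 97.2% of the starts, and the H4K16ac summit was inside the H3K79me2 peak at 93.6%. These starts were chosen for a peak of each mark within 1 kb, and the H3K79me2 peaks were broad. High shares of overlap therefore follow in large part from the choice. The H4K16ac summit had a median position 211 bp (203 to 219) into the gene, and the H3K79me2 summit lay further in, at 352 bp (338 to 363). The H4K16ac peak was narrow, with a median width of 328 bp, and the H3K79me2 peak broad, with 2250 bp. Peaks that stood alone were placed alike, with a median summit 184 bp into the gene and a width of 289 bp for H4K16ac, and 293 bp and 2098 bp for H3K79me2.

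Along genes of at least 20 kb H3K79me2 declined while H4K16ac came back towards the far end. With each gene cut into 10 equal segments, H3K79me2 covered on average 51.8% of the first segment, 26.6% of the next, 8.57% of the fifth and 2.23% of the last in 3899 genes with both marks. H4K16ac covered 7.48%, 2.09%, 3.04% and 7.26% of the same segments. The 729 genes with only H4K16ac had nearly the same H4K16ac profile, with 7.54%, 2.77%, 3.16% and 7.28%. In the 1117 genes with only H3K79me2 the mark began as high, at 51.5%, and was lower further in, at 21.9% of the next segment, 3.96% of the fifth and 0.194% of the last. Just inside the start, in the first 0.5 kb, H3K79me2 covered 80.5% with both marks and 77.3% alone, and H4K16ac 37.3% and 28.3%. Genes entered these classes through a peak within 1 kb of either end. Part of the cover at the start and at the far end therefore follows from the rule.

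**Figure D4:**
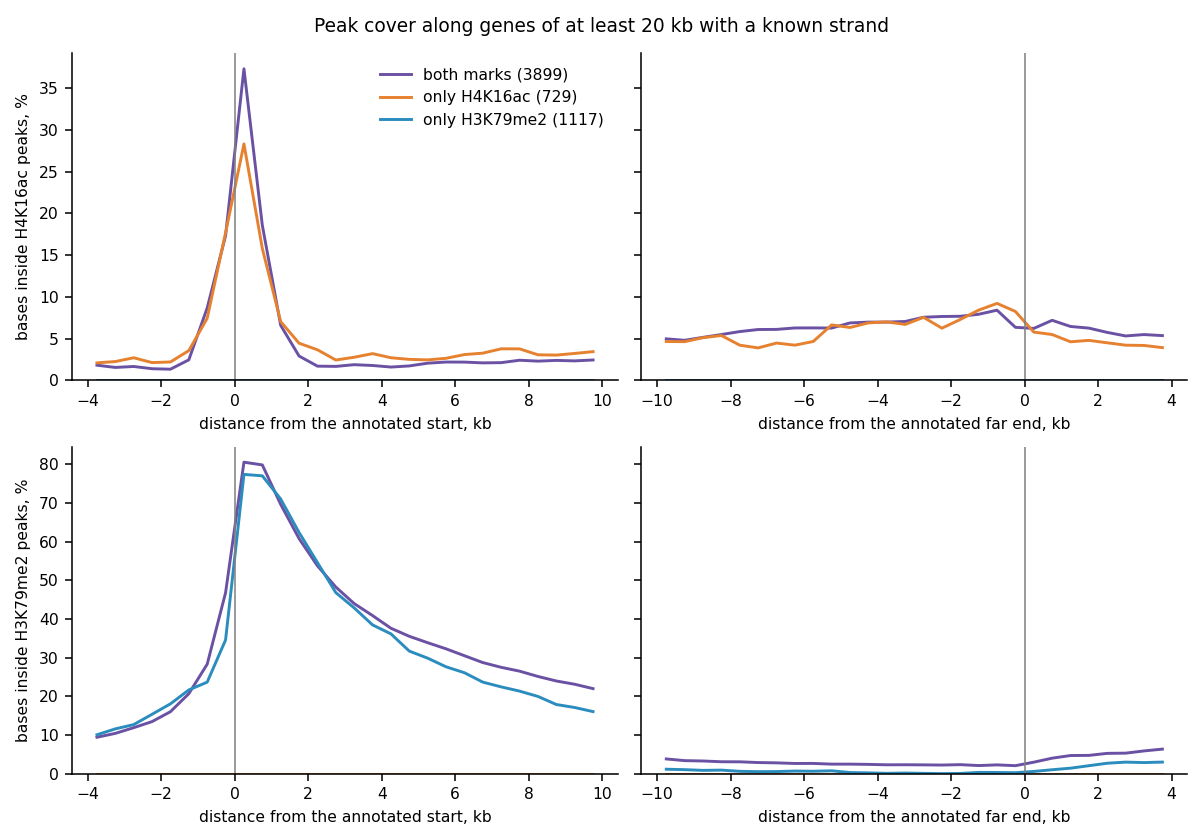
Mean share of bases under peaks (y axis, percent) by distance from the annotated start and far end (x axis, kb, windows of 0.5 kb), H4K16ac in the top panels and H3K79me2 in the lower ones, for genes of at least 20 kb, 3899 with both marks, 729 with only H4K16ac and 1117 with only H3K79me2. H3K79me2 stands high at the start and trails into the gene, and H4K16ac has a narrow crest at the start and a low level that is higher near the far end. The classes require a peak within 1 kb of an end, so part of the cover at the ends follows from the rule.

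Classes by coverage gave another view of the same genes. Each mark covered at least 10% of the length of 1733 genes, H4K16ac alone reached that in 1580 and H3K79me2 alone in 4188. At 50% the counts were 122, 242 and 1327. Well-covered genes were short: with the 10% rule the median gene spanned 8589 bp for both marks, 11545 bp where H4K16ac qualified alone and 22500 bp where H3K79me2 did. The coverage and end classes cross, since 515 of the 1580 genes covered only by H4K16ac had both marks at an end and 751 had only H4K16ac. Of the 4188 covered only by H3K79me2, 2762 had both marks at an end and 866 only H3K79me2.

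The histone variants at the same ends were not used to form the classes. H2AZ, a variant of nucleosomes that flank active starts, was at an end of 71.2% of all genes with the CST antibody and 71.5% with the Abcam antibody. It was found at 97.9% and 98.3% of the genes with both marks, at 94.2% and 95.5% of those with only H3K79me2, and at 73.1% and 71.5% of those with only H4K16ac. H3.3, the variant placed outside replication, was at 64.9% of all genes, at 96.3% with both marks, 73.4% with only H4K16ac and 69.5% with only H3K79me2. The order of the single-mark classes was thus exchanged between H2AZ and H3.3. None of the 3 variant lists had a peak at an end in 205 genes with only H4K16ac (9.44%), in 43 with only H3K79me2 (2.26%) and in 7 with both (0.0886%). The lists come from the same cells, 1 library each, and a region that gives peaks with any antibody would count in all of them.

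Promoter letters differed between the classes. A RefSeq promoter of 300 bases, 250 before to 50 after the start, was matched to 14141 genes. The median number of CpGs was 29 with both marks, 25 with only H3K79me2 and 18 with only H4K16ac, against 23 over all matched genes. CpG-poor promoters, with an observed to expected CpG ratio under 0.4, made up 32.3% of the genes with only H4K16ac, 3.72% of those with both and 2.54% of those with only H3K79me2. FTCD, printed above, is one of the first group. Such promoters made up 39.7% where H4K16ac was at an end with H3K79me2 nearby, and 60.6% with neither mark at an end. Over CpG bins only H4K16ac was most frequent at 6 to 10 CpGs, with 21.8% of genes, and fell to 7.48% above 25. Only H3K79me2 was most frequent at 21 to 25 CpGs, with 17.9%, and both marks rose from 4.05% in the lowest bin to 64.6% in the highest.

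Motifs were searched in the same promoters on both strands, as letters alone. CCGGAAG, an ETS core, was in 28.3% of promoters with only H3K79me2, 20.1% with both marks and 4.59% with only H4K16ac. The background was 15.0% of the 14141 matched promoters and 10.3% of all promoters of this length in the table, and both are given in this order below. The NRF1 core was in 15.4%, 13.6% and 1.85%, against 9.07% and 5.78%. The YY1 site was in 2.60%, 2.28% and 0.205%, against 1.44% and 0.849%. TATAAA ran the other way, with 5.40%, 4.50% and 10.4%, against 8.94% and 11.5%, so only H4K16ac lies above the matched background and below that of the whole table. CCAAT was in 40.3%, 36.4% and 26.8%, against 36.4% and 34.6%, and the E-box CACGTG in 10.3%, 11.1% and 9.31%, against 9.14% and 7.26%. Promoters of genes with neither mark at an end held the ETS core in 4.48% and the NRF1 core in 1.83%, near the shares with only H4K16ac. They held TATAAA in 18.6%. The ETS and NRF1 cores contain CpGs, as do the promoters that hold them. Within promoters of more than 25 CpGs the ETS core was in 25.8% with only H3K79me2, 20% with both and 6.03% with only H4K16ac, and the NRF1 core in 18.8%, 16.9% and 3.79%.

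**Figure D5:**
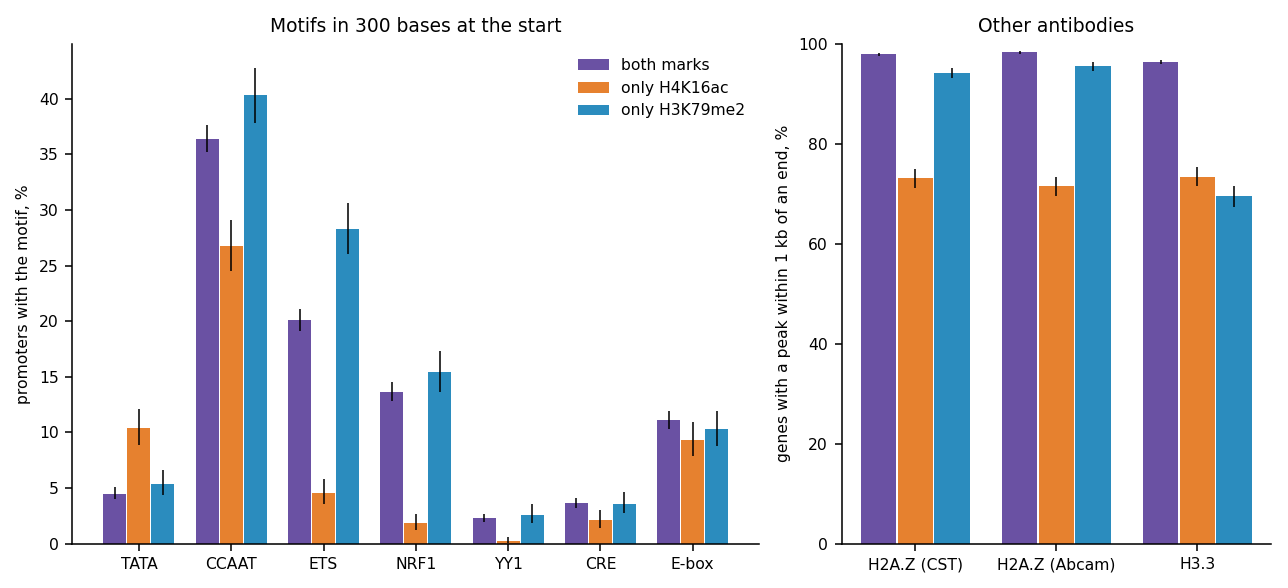
Left, share of promoters (y axis, percent) that hold each motif in 300 bases on either strand; right, share of genes (y axis, percent) with a peak of each variant antibody at an end, by class, with bars for exact 95% intervals and 1 library per antibody. The ETS share is 28.3% with only H3K79me2 and 4.59% with only H4K16ac, TATA is highest with only H4K16ac, and only H4K16ac has the lowest H2AZ shares.

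Length and promoter type were also crossed. Among promoters of up to 10 CpGs the median gene length was 10194 bp with only H4K16ac, 18959 bp with both marks and 34128 bp with only H3K79me2. Above 25 CpGs the medians were 25860, 29670 and 42878 bp. At 11 to 25 CpGs they were 18065.5, 23334.5 and 32455 bp. The order of the classes by median length was the same in each group of promoters. Above 25 CpGs the intervals of only H4K16ac (21518 to 30465 bp) and both marks (28306 to 31226 bp) overlap. Each class had a longer median above 25 CpGs than up to 10. For only H3K79me2 those intervals overlap (37856 to 45939 bp, and 21910 to 44142 bp from 92 genes), and its median was lowest at 11 to 25 CpGs.

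Most peaks of either mark lay outside the overlap. On the chromosomes used there were 76748 H4K16ac peaks over 29.2 Mb and 54476 H3K79me2 peaks over 64.2 Mb. Of the H4K16ac peaks 25.2% overlapped H3K79me2 by at least 1 bp, with 53.9% at gene ends, 22.3% elsewhere in genes and 5.18% outside genes. Of the H3K79me2 peaks 26.9% overlapped H4K16ac, with 61.2%, 17.7% and 28.3% in the same places. The shared 7.18 Mb made up 24.6% of the H4K16ac bases and 11.2% of the H3K79me2 bases.

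Genes near the 5 kb limit of the single-mark rule were few. The nearest H3K79me2 peak lay over 5 and up to 6 kb away in 77 genes with only H4K16ac, and the nearest H4K16ac peak at that distance in 53 genes with only H3K79me2. Just outside the rule, over 4 and up to 5 kb away, were 61 genes for each mark. The median distance to the nearest peak of the other mark was 40153 bp in genes with only H4K16ac and 35743 bp in genes with only H3K79me2.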

How the data were processed

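ChIP-seq peaks of HEK293T cells were taken as deposited. The tools were MACS2 2.1.0, Bowtie 1.1.2, Trimmomatic 0.33 and bcl2fastq 2.17, on build hg38, per the submitters' processing notes. No source used here gives their settings or a library's depth. Each peak has a fold enrichment, which is the authors' linear ratio. Its −log10 p and its −log10 q are the authors' values too, and the display score deposited with it was not used. Fold and −log10 q were used within a list alone, for ranks, filters and description. Lists were called per library, and 22 H4K16ac and 5 H3K79me2 peaks on other sequences were left out.

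Genes came from a RefSeq table of GRCh38.p14, without 138 entries on unplaced, alternate or patch sequences. Strand was known for 15412 genes, and 14141 had a promoter sequence. Gene lists (61) were matched by symbol or symbol pattern. The members, lists and comparisons were chosen with earlier results of these data known. Named genes are the strongest, most covered and longest of each class and up to 3 per class in each list, with classes of 5 or fewer named in full for most lists described. Some genes that this rule names are not reported here. Genes singled out beyond this, in bins, runs and promoter sequences, were chosen after their values were seen. No test was made, since each antibody had 1 library. The motif cores of NRF1 and YY1 were searched as their usual letters. Alternatives to the window, exclusion, peak threshold, peak number, summit, overlap and gene set were computed. The class calls were tested on simulated peaks. Python 3.11.15, pandas 2.3.3, numpy 2.4.6, scipy 1.17.1 and matplotlib 3.10.9 were used.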

Additional observations from a re-analysis of the deposited data

How the results depend on the processing

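Classes were recomputed with windows of 500 bp and 2 kb, an exclusion of 10 kb, −log10 q of at least 5, equal peak numbers, the 10000 strongest peaks, summits, isolated genes and starts only. In each, genes with only H3K79me2 were the longest by median and genes with only H4K16ac the shortest. With the 10000 strongest peaks of each list there were 2267 genes with both marks, 754 with only H4K16ac and 5176 with only H3K79me2. The 4234 genes with no other gene within 5 kb gave 1240, 551 and 443, and the start alone gave 1367 with only H4K16ac; fewer genes were eligible in both. The median length with both marks was 26155 bp with equal peak numbers, 22552 bp with the 10000 strongest, 31329 bp in isolated genes and 28657 bp by the start alone. With only H4K16ac it was 13615 bp in isolated genes, and with only H3K79me2 33573 bp for the 10000 strongest. The share of H4K16ac peaks that overlap H3K79me2 was 23.8% with at least 50% of the peak overlapped, 26.8% with −log10 q of at least 5, 24.3% for the 10000 strongest and 28.3% with equal numbers. The share of H3K79me2 peaks was 13.3%, 21.3% and 22.8% for the first, the 10000 strongest and equal numbers.

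Of 58 families with an order between the single-mark classes, 57 kept it with the 2 kb window, 55 with −log10 q of at least 5 and 43 in isolated genes. With the 10000 strongest peaks 31 kept it and 16 took the opposite order, among them the forkhead, T-box, FGF, nuclear receptor, calcium channel and non-HOX homeobox genes; the cause was not tested. No paired analysis was possible because each antibody had 1 library and no result came from a test. Depth is unknown, so a missing peak sets no upper limit on a mark.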
